A study of Olea europaea with 6 samples.

Results

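The comparison described here was that of mature "on-year" leaves (ON-M, November) with juvenile "on-year" leaves (ON-J, July) of olive, Olea europaea cv. Ayvalık. Its members were the arrays labelled juvenile or mature leaf of the on-year, which came to 3 of the 11 arrays of the series, 2 for ON-J and 1 for ON-M. The mature side was therefore a single array. Each array held 54615 probe sets with a value, of which 5543 were built on olive expressed sequence tags (ESTs, short reads of cDNA clones) and 49072 on gene models of poplar, another tree. The olive ESTs are described first and the poplar gene models second.

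Alternate bearing is the habit of olive trees to carry a heavy crop in one year (the on-year) and a light crop in the next (the off-year). The study collected unripe fruit (UF), ripe fruit (RF) and juvenile and mature leaves of both years from neighbouring trees of the one cultivar at one growing station, all untreated. The off-year leaves (OFF-J, July, and OFF-M, November) have 2 arrays each and were taken in the following season, so that bearing status cannot be told apart from the season of sampling. The study also speaks of separate on-year and off-year trees, so the tree may follow the same split. Within the on-year, leaf age cannot be told apart from the month. The replicate arrays are described by the study as biological, but no label says which tree gave which array. Each p-value is therefore measured against the spread of these arrays alone, and that spread may be technical.

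A young olive leaf is still building its surface and its walls. Epidermal cells elongate fatty acids and turn them into cutin and waxes, which ABC transporters carry out to the cuticle. Expansins loosen the wall while cells enlarge, aquaporins let water into the growing cells, and trichomes, the scales of the olive leaf, are laid down early. A mature leaf has largely ended these tasks, exports sugar, keeps and mobilizes starch, and in autumn meets lower temperatures and shorter days. Such leaves are also the organ that feeds, or competes with, the fruits of a bearing tree.

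All values were log2 hybridization signals, so that a log2 difference of 1 is a doubling of the signal. The random control probes read 5.21 and 5.27 on the ON-J arrays and 5.20 on the ON-M array, and a level near these is background. Over the olive ESTs the ON-J arrays correlated with each other at 0.994, while ON-M correlated with them at 0.960 and 0.957. The median olive level was 11.21 and 11.43 on the ON-J arrays and 10.66 on the ON-M array, and it lay between 10.80 and 11.40 on the off-year leaf arrays. ON-M was thus the dimmest leaf array over the olive ESTs as a whole, a shift that moved with every fall given below. Its part in them was not tested beyond the alternative scalings. The organ labels were also checked. Of the 15 transcripts that mark ripe or unripe fruit in the study's own fruit comparison, GO244680_1 and GO243351_1 were bright in all leaves (14.25 and 12.69 on ON-M) and GO246036_1 read 9.03 there, while the other 12 stayed between 4.65 and 7.21.

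Falls far outnumbered rises among the olive ESTs of the mature leaf. A transcript was called where limma gave a Benjamini-Hochberg adjusted p under 0.05 over all probe sets and a log2 difference of 2 or more, the size the study used. In ON-M against ON-J, 253 ESTs (4.56% of the olive ESTs tested) were called lower and 10 (0.18%) higher. The called falls ranged from 2.01 to 6.21 on the log2 scale and the called rises from 2.11 to 3.79. In 233 of the 253 and in 9 of the 10, both ON-J arrays lay at least 2 log2 units from the ON-M array. For 52 of the 253, the ON-M level was within 1 log2 unit of the random control, and the size of those falls depends on the background. The spread of ON-M is not known from 1 array and was assumed to be that of the other groups. Where arrays are left out in turn below, these are the 10 arrays other than ON-M. The ON-M array stayed in every fit, so leaving out the others does not test it.

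**Figure D1:**
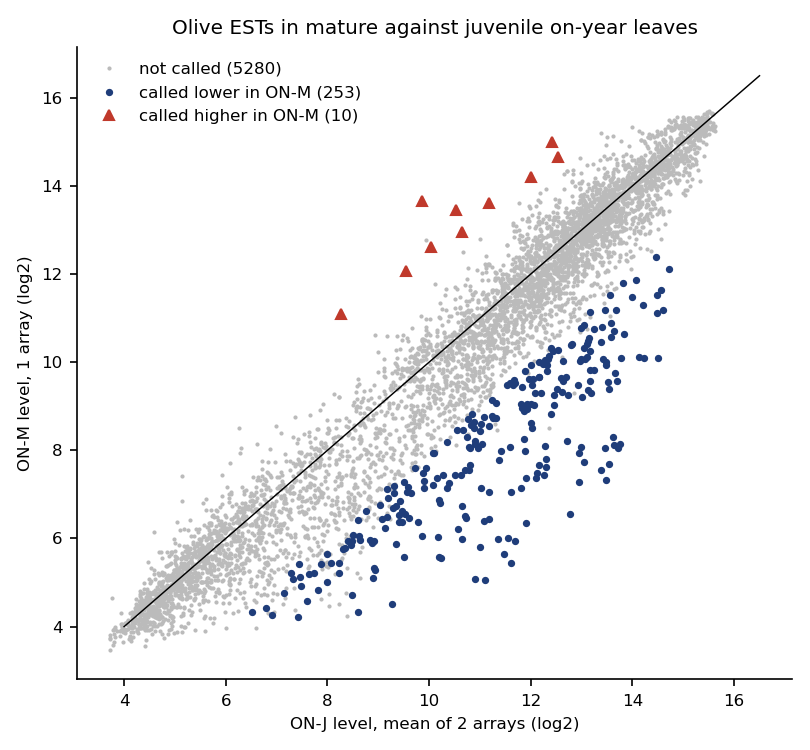
Level of each of the 5543 olive ESTs in the ON-M array (vertical axis, log2) against the mean of the 2 ON-J arrays (horizontal axis, log2), with the diagonal of equal levels. The 253 ESTs called lower lie below the diagonal over the whole range of juvenile levels, and the 10 called higher lie above it.

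The direction of the whole olive set was slightly downward. The median difference over all olive ESTs was -0.20, and 63.6% of them were lower in ON-M. It was -0.07 for the ESTs brightest in the off-year juvenile leaves, which are no part of the comparison, and -0.52 for those between 8 and 10 there. A fit restricted to the olive ESTs, chosen after seeing the data, called 344 lower and 12 higher. Within that restriction, centring each array on its olive median moved the median difference to 0.46, and 174 ESTs were called lower and 48 higher. Shifting the arrays so that the median olive EST hardly moved (0.02), also chosen after seeing the data, gave 278 and 16 in the same restricted fit. The number of falls was 154 without ON-J replicate 1 and 145 without ON-J replicate 2, and 132 of the 253 were called in both cases. The number of rises was 2 and 6, with 2 called in both cases. It was 5 without either UF array and 6 without either OFF-M array.

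The largest fall was that of GO243991_1, an EST annotated to fatty acid metabolism and oxidation-reduction. It read 12.55 and 13.00 in ON-J and 6.56 in ON-M, a fall of 6.21 on the log2 scale (SE 0.39, adjusted p = 0.000263), or 74.2-fold. Off-year juvenile leaves read 12.26 and 12.17 and off-year mature leaves 9.73 and 10.10, so that the lowest of the 7 leaf arrays was ON-M. All 5 ESTs with this annotation fell, by 4.49 to 6.21, from 10.67 to 13.00 in juvenile leaves down to 5.07 to 7.67. Only transcripts that the study had picked from these same arrays carry an annotation. Among them GO244094_1, GO245033_1 and GO243363_1 fell by 6.04, 5.83 and 5.82 on the log2 scale and ended near the random control. Sequences of these ESTs were not used here, and several may come from one transcript, so they are not independent genes.

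Most of the lipid transcripts that the study had picked from these arrays were called lower. Of 44 transcripts with fatty acid, lipid, cutin or wax terms (34 olive and the rest poplar), 33 were called lower and none higher by limma, and 2 were higher at an unadjusted p under 0.05. The median difference of the list was -2.95, against -0.20 over all olive ESTs and 0.09 over all poplar gene models. The study had picked 42 of the 44 as changed, outside the off-year comparison, so this gap is not independent evidence. Among all annotated transcripts picked that way 262 of 541 were called lower. The other 2 lipid members, not picked in any comparison with on-year leaves, had a median of 0.76. Beside GO243991_1 the group was headed by GO243240_1 (lipid metabolism). It read 13.48 and 13.47 in ON-J and 7.33 in ON-M, so that it fell by 6.14 on the log2 scale (SE 0.25, adjusted p = 8.69e-05), and its fall exceeded that of the off-year by 4.20 (SE 0.32, adjusted p = 0.00306). GO243632_1, which carries the terms cutin biosynthesis, fatty acid oxidation and flower organ development, read 12.17 and 12.38 in ON-J and 8.11 in ON-M. It fell by 4.17 on the log2 scale (SE 0.27, adjusted p = 0.000291). GO244140_1, annotated to carbohydrate and fatty acid metabolism and defense, fell from 11.57 and 12.25 to 6.36, by 5.55 on the log2 scale (SE 0.49, adjusted p = 0.00117).

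**Figure D2:**
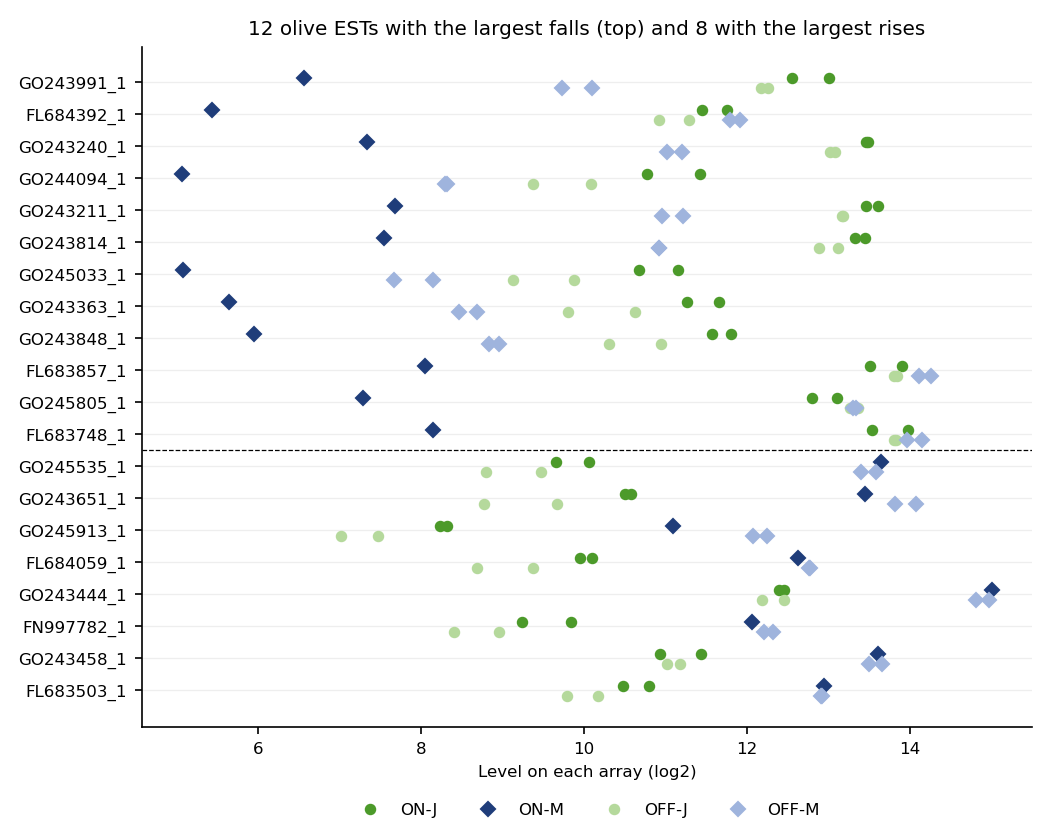
Level on each leaf array (horizontal axis, log2) of the 12 olive ESTs with the largest falls (above the dashed line) and the 8 with the largest rises (below it). Dark symbols are on-year arrays and light symbols off-year arrays, with circles for juvenile and diamonds for mature leaves. In every fall the ON-M diamond lies left of all other leaf arrays, by far for FL684392_1 and the amino acid ESTs FL683857_1, GO245805_1 and FL683748_1. In the rises ON-M lies among or near the OFF-M diamonds.

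Among the cell wall and trichome transcripts falls outnumbered rises. Of 30 transcripts with wall, cell expansion or trichome terms, 16 were called lower and 2 higher, with a median of -2.37. All 16 falls were among the 23 members picked outside the off-year comparison, against 262 of 541 of all annotated transcripts picked that way. The count of falls dropped to 8 without ON-J replicate 2, 9 without ON-J replicate 1 and 10 without 1 array of UF or OFF-M. GO245304_1, annotated to syncytium formation and the response to karrikin, read 11.35 on both ON-J arrays and 6.00 in ON-M, a fall of 5.35 (SE 0.32, adjusted p = 0.000222). GO245145_1, annotated to cell wall biogenesis and trichome morphogenesis, read 12.99 and 13.09 against 7.75, and fell by 5.29 on the log2 scale (SE 0.25, adjusted p = 8.69e-05). Both also fell in the off-year, by 3.01 and 2.46 on the log2 scale (adjusted p = 0.0035 and 0.00337). On the upper side stood GO243458_1 (multidimensional cell growth and transcription), which read 10.94 and 11.43 in ON-J and 13.61 in ON-M and is described with the rises.

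The EST nearest in pattern to GO243991_1 over the 7 leaf arrays was GO245518_1, at a Euclidean distance of 1.25. GO245145_1 (1.45), GO245517_1 (1.47), GO244729_1 (1.53) and GO243430_1 (1.62, no known process) followed. GO245518_1 and GO245517_1 share terms for the regulation of secondary wall formation and of transcription and the response to abscisic acid. GO245518_1 read 12.18 and 12.36 in ON-J and 7.44 in ON-M, and GO245517_1 12.21 and 12.39 against 7.81. They fell by 4.83 (SE 0.59, adjusted p = 0.00893) and by 4.49 on the log2 scale (SE 0.50, adjusted p = 0.00519). The call of GO245518_1 was lost without either ON-J array (adjusted p up to 0.0588). GO244729_1, another wall and trichome EST, read 12.88 and 13.00 in ON-J and 7.93 in ON-M. GO243430_1 read 11.84 and 11.98 against 7.38.

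Defense transcripts were split. In the list of 55 biotic defense transcripts 20 were called lower and 6 higher, with a median of -0.84. All 20 falls were among the 41 members picked outside the off-year comparison. Among all annotated transcripts picked that way 262 of 541 were called lower, a similar share. The rises numbered 2 or 3 when 1 array of UF, OFF-J, OFF-M or ON-J was left out. At the low end were 4 ESTs annotated to defense and the response to biotic stimuli, all called lower, by 3.01 to 5.85 on the log2 scale. GO243211_1 read 13.61 and 13.47 in ON-J and 7.68 in ON-M, and GO243814_1 13.45 and 13.33 against 7.55. They fell by 5.85 (SE 0.32, adjusted p = 0.000127) and by 5.84 on the log2 scale (SE 0.28, adjusted p = 8.69e-05). GO243848_1, described by the study's annotation as type I hypersensitivity, fell from 11.80 and 11.57 to 5.94, by 5.74 on the log2 scale (SE 0.50, adjusted p = 0.00117). At the high end stood 2 poplar gene models, a tyrosine decarboxylase and a protein phosphatase 2C, described below.

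The water and ion transport lists held called falls and no called rise. Among all annotated transcripts picked outside the off-year comparison, 262 of 541 were called lower. For members picked that way the share was 6 of 9 for water transport, 20 of 49 for a cation transport block and 4 of 9 for other ion transport. The lists were not tested against each other. Of 10 water transport transcripts, 6 were called lower and none higher by limma (1 at an unadjusted p under 0.05), with a median of -3.19, and the count of falls was 4 without either ON-J array. GO244165_1, annotated to water transport and the response to abscisic acid, read 10.88 and 11.13 in ON-J and 5.80 in ON-M, close to the random control. It fell by 5.21 on the log2 scale (SE 0.31, adjusted p = 0.000214), while the off-year leaves read 9.71 and 9.20 in July and 9.39 and 9.07 in November. Its differences in the 2 years were 4.98 apart (SE 0.40, adjusted p = 0.0038). The other ESTs with the same annotation were GO245680_1 and GO245690_1, which fell by 3.49 and 2.90 on the log2 scale. GO244702_1, annotated to calcium and methylammonium transport and Golgi organization, behaved like GO244165_1. It read 13.06 and 13.17 in ON-J and 9.37 in ON-M (a fall of 3.75, SE 0.25, adjusted p = 0.00034), and its off-year difference was -0.11.

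A block of 49 transcripts shared one annotation of calcium and cation transport, cation homeostasis and stress response. Of these, 48 had a difference below 0, 20 were called lower and none higher by limma, none higher at an unadjusted p under 0.05 either, and the median was -2.45. Their median level was 7.80 and 7.93 in ON-J and 5.23 in ON-M, at the random control. GO246079_1 read 7.29 and 7.93 against 4.59 (a fall of 3.02, SE 0.47, adjusted p = 0.029), and GO246108_1 8.09 and 8.38 against 5.23 (a fall of 3.01, SE 0.52, adjusted p = 0.0484). These calls hung on the spread estimate. The count was 1 without ON-J replicate 1, 3 without ON-J replicate 2, 2 without either OFF-M array, 8 without either UF array, 12 without OFF-J replicate 1 and 42 without RF replicate 2. In a fit with the 7 leaf arrays alone it was 37. Of 12 other ion transport transcripts 4 were called lower. The largest of these falls were those of GO243557_1 (3.77) and GO244702_1 (3.75), which were about equal in size. GO243557_1 (lipid and transition metal ion transport) read 8.29 and 8.68 in ON-J and 4.72 in ON-M.

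A set of 7 amino acid ESTs fell in the on-year, and none of them fell in the off-year. All 7 ESTs annotated to cellular amino acid metabolism alone were called lower, by 3.19 to 5.67 on the log2 scale. Like every annotated transcript, they had been picked by the study from these same arrays. They read 12.78 to 13.75 on one ON-J array and 12.80 to 13.98 on the other, but 7.29 to 10.65 in ON-M. The off-year arrays of both months lay between 12.92 and 14.56, so that ON-M was below all 6 other leaf arrays for each of them. FL683857_1 read 13.51 and 13.91 in ON-J and 8.04 in ON-M, and fell by 5.67 on the log2 scale (SE 0.27, adjusted p = 8.69e-05). GO245805_1 read 13.10 and 12.80 against 7.29 (a fall of 5.66, SE 0.29), and FL683748_1 13.53 and 13.98 against 8.15 (a fall of 5.61, SE 0.28). Their off-year differences were 0.37, 0.01 and 0.24, and the difference between the years was called for all 7 ESTs. Here too the ESTs may belong to one transcript. In the list of 25 amino acid and amine transcripts as a whole, 17 were called lower and 2 higher, with a median of -2.71, and in the off-year 2 were called lower and 5 higher. The on-year rises numbered 1 without 1 array of UF, OFF-M or ON-J.

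The EST with the next largest fall after GO243991_1 was FL684392_1, of unknown process, from an olive fruitlet library. It read 11.45 and 11.76 in ON-J and 5.43 in ON-M (a fall of 6.17, SE 0.30, adjusted p = 8.69e-05). In the off-year it read 11.29 and 10.92 in July and 11.91 and 11.79 in November. FL683438_1 and GO244999_1, also of unknown process, fell by 3.43 on the log2 scale (SE 0.32, adjusted p = 0.00168) and by 3.79 on the log2 scale (SE 0.44, adjusted p = 0.00691). FL683438_1 read 13.25 and 13.26 in ON-J and 9.82 in ON-M, and it fell in the off-year too, by 2.64 on the log2 scale (adjusted p = 0.00538). GO244999_1 read 8.94 and 8.86 against 5.11, and its call was lost without ON-J replicate 1 (adjusted p = 0.0542). The fruit transcript FL684399_1 read 7.41 and 8.12 in ON-J and 6.93 in ON-M, a difference of -0.83 that did not pass (adjusted p = 0.48).

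The list of oxidation-reduction held 37 falls with all arrays, and its count changed with the arrays used. All 37 were among its 57 members picked outside the off-year comparison, against 262 of 541 of all annotated transcripts picked that way. Of its 61 transcripts, these 37 were called lower and 2 higher, with a median of -2.60, and the falls numbered 21 without ON-J replicate 1, 20 without ON-J replicate 2 and 22 without 1 array of UF or OFF-M. Among the 11 with the term response to oxidative stress as the only other term, which is typical of peroxidases, 8 were called lower, with differences from -2.98 to -2.08. Their off-year differences lay between -0.17 and 0.38. The one olive rise in the list was FL684059_1, given with the rises.

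Pigment and isoprenoid transcripts also moved. FL683725_1, annotated to chlorophyll and terpenoid synthesis, read 14.32 and 14.67 in ON-J and 10.10 in ON-M (a fall of 4.40, SE 0.49, adjusted p = 0.00525), while all 4 off-year arrays lay between 14.26 and 14.61. In the photosynthesis list of 16 transcripts, 8 of them olive and the rest poplar, 5 were called lower and 2 higher, with a median of 0.35. Both rises were poplar gene models, and the falls were olive ESTs except for the poplar model eugene3.00101184. The median of the mixed list therefore does not describe its olive ESTs. The falls numbered 2 without ON-J replicate 1, 3 without ON-J replicate 2 and 3 without either OFF-M array. GO244126_1 (ferredoxin and photosynthetic electron transport) read 10.68 and 10.89 against 7.56 (a fall of 3.23, SE 0.49, adjusted p = 0.0262). Its call was lost without any 1 array of OFF-M or ON-J (adjusted p up to 0.113). GO244424_1, annotated to light harvesting and nonphotochemical quenching, fell from a mean of 12.07 to 9.02, by 3.05 on the log2 scale (SE 0.27, adjusted p = 0.00136).

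Of 16 terpenoid and sterol transcripts 8 were called lower and none higher by limma (1 at an unadjusted p under 0.05), and the falls numbered 3 to 5 when an array of ON-J, UF or OFF-M was taken out. GO244699_1, one of 3 ESTs annotated to triterpenoid synthesis, read 13.11 on both ON-J arrays and 10.12 in ON-M (a fall of 2.99, SE 0.26, adjusted p = 0.00112). Of 10 flavonoid and phenylpropanoid transcripts 6 were called lower and 1 higher. The falls numbered 2 without either ON-J array, 3 without either UF array and 4 without either OFF-M array. GO243114_1 (flavonol synthesis) read 11.86 and 11.98 in ON-J and 8.94 in ON-M, and GO243553_1 (anthocyanin synthesis and the response to sucrose) 10.65 and 11.16 against 8.21. They fell by 2.98 (SE 0.36, adjusted p = 0.00808) and by 2.69 on the log2 scale (SE 0.34, adjusted p = 0.0105). The call of GO243114_1 was lost without ON-J replicate 1 (adjusted p = 0.0501). In the off-year these ESTs had differences of 0.93 and 1.10, neither of which was called.

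Falls outnumbered rises among the protein folding and stress transcripts. Of 15 protein folding transcripts 9 were called lower and none higher by limma, none higher at an unadjusted p under 0.05 either, with a median of -2.73. All 9 falls were among the 12 members picked outside the off-year comparison. GO244048_1 (protein folding and the response to bacteria and arsenic) read 11.01 and 11.04 in ON-J and 7.14 in ON-M (a fall of 3.88, SE 0.32, adjusted p = 0.000892). FL684184_1 (heat acclimation and endoplasmic reticulum stress) read 13.35 and 13.62 against 10.01 (a fall of 3.47, SE 0.38, adjusted p = 0.00427), and fell in the off-year by 2.65 on the log2 scale. In the list of 64 transcripts of cold, heat, salt, drought and light stress, 31 were called lower and 5 higher, with a median of -2.17, and 43 had a difference below 0. All 31 falls were among the 54 members picked outside the off-year comparison, and among all annotated transcripts picked that way 262 of 541 were called lower. The falls numbered 18 without either ON-J array and 19 without 1 array of UF or OFF-M, and the rises 2 or 3.

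The regulatory lists were mixed. Among all annotated transcripts picked outside the off-year comparison 262 of 541 were called lower. For members picked that way the falls were 15 of 30 for hormones, 6 of 21 for transcription and 5 of 26 for kinases. They were 8 of 20 for turnover and 7 of 18 for flower development. Among 36 hormone transcripts 15 were called lower and 4 higher, with 8 falls without ON-J replicate 1 and 10 without ON-J replicate 2. Among 25 transcription regulators 6 were called lower and 5 higher, and only 2 falls were called without either ON-J array. Among 29 protein kinase transcripts 5 were called lower and 3 higher, and among 26 of protein turnover 8 were called lower and 3 higher. Of 20 transcripts of flower development and day length 7 were called lower and 5 higher. None of 13 cytoskeleton transcripts was called by limma, and at an unadjusted p under 0.05 6 were lower and 2 higher. With 1 array of ON-J, OFF-M or UF left out, the falls numbered 3 for the kinases and 5 or 6 for turnover, and the rises of each of these lists 1 to 4. Without either OFF-J array 9 kinases were called lower. GO244546_1 and GO244186_1 led the kinases with falls of 2.76 (SE 0.31, adjusted p = 0.00537) and 2.53 on the log2 scale (SE 0.27, adjusted p = 0.00348). GO243610_1 (anther development and the wall) read 11.78 and 11.97 in ON-J and 8.00 in ON-M. FL684185_1 (protein ubiquitination) read 8.45 and 8.76 against 4.32, and its call was lost without 1 array of OFF-M or ON-J (adjusted p up to 0.0904).

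The 10 ESTs that rose did so in leaves of both years. In the off-year all 10 had a difference above 0 and 9 were called higher there. None had a called difference between the years. GO245535_1, annotated to the response to karrikin, a compound of smoke that seeds sense, read 9.65 and 10.06 in ON-J and 13.65 in ON-M. It rose by 3.79 (SE 0.43, adjusted p = 0.00566), or 13.9-fold, and by 4.36 in the off-year (adjusted p = 0.00337). GO243444_1, of unknown process, had a mean of 12.42 in ON-J, against 12.32 in OFF-J, and rose by 2.58 in ON-M (SE 0.27, adjusted p = 0.00303), and it rose by 2.57 in the off-year. These were the rises whose calls held with each array other than ON-M left out in turn.

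The other rises were more fragile. GO243651_1 (proteolysis) read 10.50 and 10.58 in ON-J and 13.45 in ON-M (a rise of 2.92, SE 0.40, adjusted p = 0.0151), and its call was lost without either ON-J array (adjusted p up to 0.0904). GO245913_1 (carbohydrate metabolism and meristem growth) read 8.23 and 8.32 against 11.10 (a rise of 2.82, SE 0.40, adjusted p = 0.0187), lost without 1 array of UF, OFF-M or ON-J (up to 0.104). FL684059_1 (oxidation-reduction) read 9.96 and 10.10 against 12.62. It rose by 2.59 (SE 0.32, adjusted p = 0.00918), and by 3.73 in the off-year.

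FN997782_1, another karrikin EST, read 9.24 and 9.84 against 12.07 (a rise of 2.53, adjusted p = 0.034), and its call was lost when any 1 array outside the ripe fruit was left out (up to 0.148). GO243458_1 rose by 2.43 (SE 0.33, adjusted p = 0.0148), which was lost without either UF array or ON-J replicate 1 (up to 0.0754). FL683503_1, of unknown process, read 10.48 and 10.80 against 12.95, and FL684059_1 and FL683503_1 lost their calls without ON-J replicate 1 (adjusted p = 0.0621 and 0.0509). GO245268_1, whose terms are starch breakdown, maltose synthesis and the response to cold, had a mean of 12.01 in ON-J and read 14.21 in ON-M. That rise of 2.21 (SE 0.32, adjusted p = 0.0213) was lost without 1 array of UF, OFF-M or ON-J (up to 0.0999). In the off-year it rose by 1.76.

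The transcripts annotated to carbohydrate metabolism alone had no on-year call, while other carbohydrate transcripts did. Of these 97 transcripts, none was called by limma between ON-M and ON-J, none reached the size of 2 with an unadjusted p under 0.05, and the median difference was 0.33. Their median level was 9.32 and 9.86 in ON-J and 9.85 in ON-M. In the off-year 95 of the same transcripts were called higher in the mature leaf, with a median of 2.72, and the study took 95 of them from that off-year comparison. It picked none of those 95 in a comparison with on-year leaves. The off-year calls and the missing on-year calls therefore largely follow from that choice. The difference between the years was called negative for 1 of the 97. Among 29 other starch, sugar and glycolysis transcripts 10 were called lower and 2 higher in ON-M, with a median of 0.40. The falls numbered 5 without ON-J replicate 1, 4 without ON-J replicate 2 and 6 without either UF array, and no rise was left without 1 array of UF, OFF-M or ON-J.

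The annotations cover transcripts that the study had picked from these same arrays, so that a list's share of calls is not independent evidence of its direction. Of the 698 annotated transcripts, 541 came from tables that used the on-year leaves or other pairs, and among them 262 were called lower and 36 higher. For list members among these 541, the falls were 17 of 21 for amino acids, 8 of 13 for terpenoids and 6 of 9 for flavonoids. They were 5 of 13 for photosynthesis and 10 of 20 for starch, sugar and glycolysis. The 157 picked from the off-year leaves alone held no call by limma, 35 of them had an unadjusted p under 0.05 but at a smaller size than 2, and their median was 0.40. In the lipid list the 2 members picked that way had a median of 0.76, and in the wall list the 7 such members had one of 0.80. The study had picked none of these 157 in a comparison with on-year leaves. Their lack of on-year calls therefore largely follows from that choice and is no contrast to the other members. Of the 263 olive ESTs called, 260 had an annotation, which read "unknown" for 94.

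**Figure D3:**
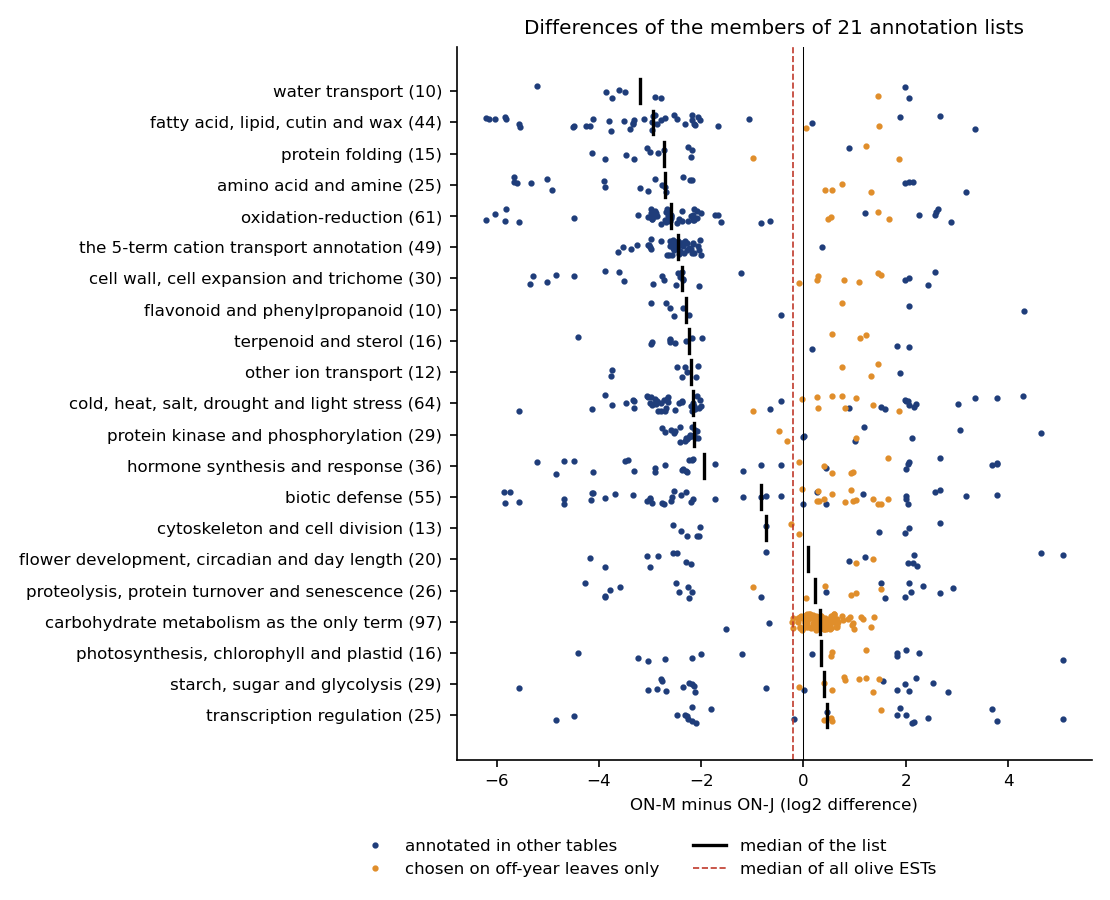
Log2 difference between ON-M and ON-J (horizontal axis) of each member of the 21 annotation lists, with the number of members in brackets, the median of each list as a black bar and the median of all olive ESTs as a dashed line. Blue points are members the study picked from tables other than the off-year leaf comparison and orange points are members picked from that comparison alone. The blue points lie mostly beyond 2 on either side, the size at which the study picked them, and the orange points lie close to 0. The orange members were not picked in any comparison with on-year leaves, so their small differences largely follow from that choice.

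Fewer olive ESTs were called lower in the off-year. Between OFF-M and OFF-J, 16 olive ESTs (0.289%) were called lower and 163 (2.94%) higher, and these arrays are not shared with the on-year comparison. All 16 of the off-year falls were among the 253 on-year falls. Of the 253, the off-year difference was below 0 in 186 (73.5%, against 41.3% of all olive ESTs), and it was within 1 of 0 in 141 (55.7%, against 84.7%). The difference between the years was called negative for 82 olive ESTs (1.48%) and positive for 1 (0.018%). Of the 82, 73 were on-year falls and 11 were off-year rises.

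These calls between the years depended strongly on which arrays set the spread. The 83 became 19 without ON-J replicate 1, 32 without ON-J replicate 2, 20 without either UF array or OFF-J replicate 2, 18 without either OFF-M array and 444 without either RF array. Of 38 transcripts named here with such a call, 12 kept it with each array left out in turn. They were FL684392_1, GO243240_1, the amino acid ESTs FL683857_1, GO245805_1 and FL683748_1, the transport ESTs GO244702_1 and GO244165_1, FL684126_1, GO243399_1, GO244287_1 and the poplar gene models eugene3.02430009 and fgenesh4_pm.C_LG_IV000224. The fatty acid EST GO243991_1 was not among them. Its difference of -3.91 between the years (adjusted p = 0.0328) was lost when any 1 array of UF, OFF-J, OFF-M or ON-J was left out, with an adjusted p up to 0.164.

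**Figure D4:**
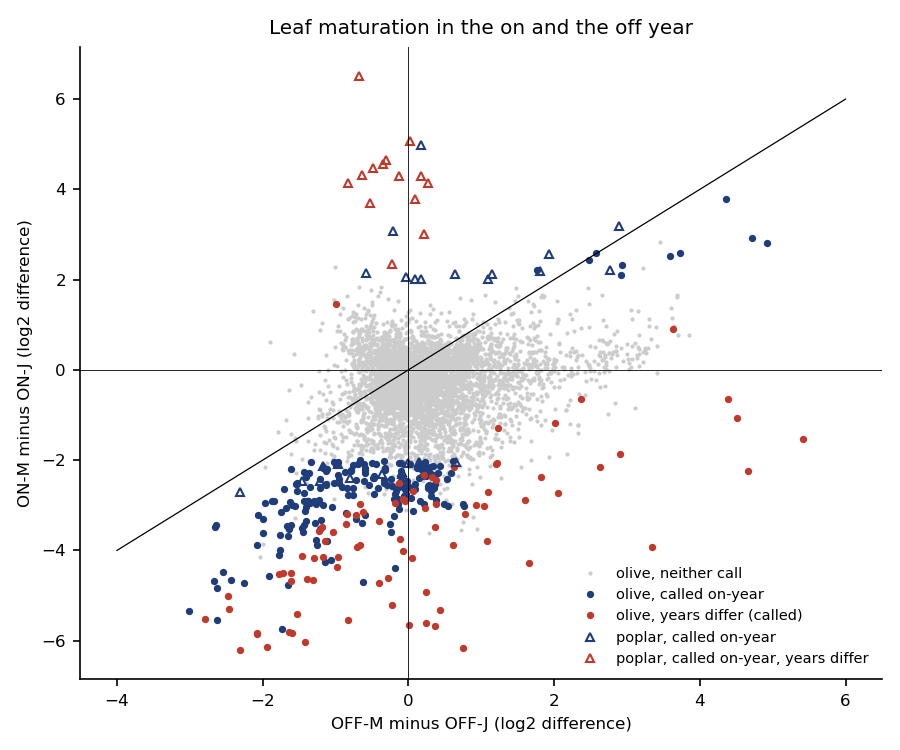
Log2 difference between mature and juvenile leaves in the on-year (vertical axis) against the off-year (horizontal axis), with the diagonal of equal differences. Small grey points are olive ESTs without a call, blue and red points are called olive ESTs, and triangles are the poplar gene models called in the on-year. Red marks a called difference between the years, and the red olive points lie mostly below the diagonal, where the on-year difference was the lower one. Some of these ESTs fell in both years, and others were flat or rose in the off-year.

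On the arrays 4 olive ESTs went opposite ways between the years. They were lower in the mature leaf of the on-year and higher in that of the off-year, each past the threshold. In the study's quantitative PCR, scaled to ribosomal RNA, FL684126_1 was higher in the mature leaf in both years. GO243710_1 was about level in the on-year there. For these ESTs the opposite directions were thus seen on the arrays only. Of the other ESTs with PCR values, GO244999_1 rose with on-year maturation by PCR, against its fall on the arrays. FL684399_1 also rose by PCR, where its small array difference was a fall. GO245304_1 and GO244140_1 fell by both methods, but by less in the PCR. GO245535_1, GO243651_1 and GO245913_1 rose by both methods. FL684126_1 (flavonoid synthesis) read 10.79 and 10.99 in ON-J and 8.65 in ON-M, but 9.16 and 8.36 in OFF-J and 13.40 and 13.44 in OFF-M. It fell by 2.24 on the log2 scale (SE 0.34, adjusted p = 0.0257) and rose by 4.66 (adjusted p = 0.00218), a difference of -6.90 (SE 0.44, adjusted p = 0.00125). Its on-year call was lost without 1 array of UF, OFF-M or ON-J (up to 0.103), while the difference between the years held.

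GO243710_1, annotated only as metabolic process, read 9.54 and 9.46 in ON-J and 5.58 in ON-M, against 7.47 and 5.99 in OFF-J and 10.16 and 9.97 in OFF-M. Its difference of -7.25 between the years (SE 0.64, adjusted p = 0.00531) was the largest of any called olive EST. It narrowly missed without ON-J replicate 1 (adjusted p = 0.0516), and the on-year fall of 3.91 was lost without either ON-J array (up to 0.0739). GO243399_1 (a biosynthetic process) had a mean of 12.15 in ON-J, read 10.01 in ON-M and rose by 2.64 in the off-year. GO244287_1 (wall organization) read 10.77 and 10.82 against 8.08 and rose by 2.05 in the off-year. The on-year calls of GO243399_1 and GO244287_1 were lost without ON-J replicate 2 (adjusted p = 0.05) and without ON-J replicate 1 (adjusted p = 0.0509). FL683787_1, a transcript that is bright in ripe fruit, read 6.35 and 6.01 in ON-J and 4.65 in ON-M, a difference that did not pass, and rose by 5.42 in the off-year. The 1 positive case was GO245879_1, which read 12.26 and 12.09 in ON-J and 13.62 in ON-M (adjusted p = 0.064) and was lower in OFF-M, neither of which was called.

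Among the 49072 poplar gene models, 12 (0.0245%) were called lower and 27 (0.055%) higher. These probe sets detect olive RNA only where its sequence is close to that of poplar. They have fewer probes, and of the 27 rises 10 rested on 1 probe, 15 on 2 and 2 on 3, against 4915, 17387 and 26770 of all poplar sets. The 263 called olive ESTs all had 3. As a whole the poplar sets were slightly higher in ON-M, with a median difference of 0.09 and 41.1% of them lower there. The median was 0.30 for sets between 8 and 10 in the off-year juvenile leaves and 0.70 for those between 12 and 14. The part of this shift in the poplar rises was not tested. The count of 39 poplar calls was 20 without either OFF-M array, 21 without either UF array, 62 without either RF array and 153 without ON-J replicate 2. In a small part of the 49072 poplar sets a single leaf array lay at least 2 above the other 6. It was ON-M for 22 of them, ON-J replicate 1 for 180, and another of the leaf arrays for 30 to 66 each.

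The named poplar falls carried wax, wall and phosphate terms. For 7 of the 12 falls the ON-M level was within 1 log2 unit of the random control. The largest was eugene3.00101184, described as CUT1/CER6, which in Arabidopsis elongates the fatty acids of waxes. It read 8.23 and 7.50 in ON-J and 5.15 in ON-M (a fall of 2.71, SE 0.43, adjusted p = 0.0322), and fell in the off-year by 2.31 on the log2 scale (adjusted p = 0.0221). The next were gw1.VIII.780.1, given below, and a pair of expansin A4 models, expansins being wall-loosening proteins. The model estExt_fgenesh4_pg.C_LG_VIII0467 read 7.67 and 6.78 against 4.77 (a fall of 2.46), and fgenesh4_pg.C_LG_X001844 read 9.51 and 9.42 against 7.06 (a fall of 2.40).

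The models gw1.VIII.780.1 and gw1.378.10.1, of the EXS family with phosphate starvation terms, read 7.65 and 7.67 against 5.19 and 9.62 and 9.60 against 7.30. Of the 5 falls named, only gw1.378.10.1 kept its call with each array left out in turn (adjusted p = 0.00616 with all arrays). For eugene3.00101184, gw1.VIII.780.1 and the expansin models estExt_fgenesh4_pg.C_LG_VIII0467 and fgenesh4_pg.C_LG_X001844, the adjusted p reached 0.138, 0.148, 0.138 and 0.096 when an array of UF, OFF-M or ON-J was left out.

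The poplar rises ranged from 2.01 to 6.52. For 15 of the 27 the mean ON-J level was within 1 log2 unit of the random control, so that the size of those rises depends on the background. Of the 27, 21 had an off-year difference within 1 of 0, against 97.4% of all poplar sets, and 2 were called higher in the off-year. The difference between the years was called positive for 19 poplar sets (0.0387%), of which 14 were on-year rises, and negative for 3, none of which was an on-year fall. The gene model eugene3.02430009, read by 1 probe, is described as a hypothetical protein of Burkholderia fungorum, a bacterium. It was at 8.84 and 9.16 in ON-J and 15.52 in ON-M, a rise of 6.52 (SE 0.47, adjusted p = 0.000454). Off-year leaves read 8.98 and 10.22 in July and 8.86 and 8.98 in November. The model gw1.123.49.1, matched to COL2, a CONSTANS-like transcription factor of the family that reads day length in Arabidopsis, was at background in ON-J (4.88 and 5.01) and at 10.02 in ON-M. It rose by 5.08 (SE 0.42, adjusted p = 0.000904), and the 4 off-year arrays lay between 5.10 and 5.39.

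The next were fgenesh4_pg.C_LG_XVII000057 (a RAB GDP-dissociation inhibitor), fgenesh4_pm.C_LG_IV000224 (a leucine-rich repeat kinase with petal and chromatin silencing terms) and eugene3.01250091 (an SNF2 helicase). They read 4.86 and 3.90 against 9.37, 5.94 and 6.46 against 10.84, and 5.16 and 4.61 against 9.46. The call of fgenesh4_pg.C_LG_XVII000057 (adjusted p = 0.0349) was lost without any 1 array outside the ripe fruit (up to 0.143).

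Several other rises carried stress or signalling terms. The BTB-POZ protein BPM4 model, estExt_Genewise1_v1.C_660290, with salt and water stress terms, read 8.49 and 8.75 in ON-J and 12.92 in ON-M (a rise of 4.30, SE 0.32, adjusted p = 0.000475). The protein phosphatase 2C model eugene3.00020895 read 8.44 and 7.82 against 11.91 (a rise of 3.78, SE 0.42, adjusted p = 0.00475), and eugene3.00170500, with abscisic acid signalling terms, 7.70 and 8.05 against 11.56 (a rise of 3.69, SE 0.32, adjusted p = 0.00114). The flavonol glucosyltransferase model UGT73B2, eugene3.00290281, read 4.95 and 5.92 against 9.75. The ribosomal protein P2 model eugene3.00102522, with a cold response term, read 5.80 and 5.91 against 8.87, and estExt_fgenesh4_pg.C_LG_VI1748, a proteasome maturation factor, 4.90 and 4.98 against 7.29.

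Only 2 of the poplar rises were called in both years, and the others named here were not called in the off-year. The tyrosine decarboxylase model estExt_fgenesh4_pg.C_LG_II2533 read 8.89 and 9.17 in ON-J and 12.22 in ON-M, a rise of 3.19 (SE 0.35, adjusted p = 0.00413), and it rose by 2.89 in the off-year. The ELI3-1 model grail3.0001090401, an oxidoreductase with lignin and hypersensitive response terms, read 7.63 and 8.72 against 10.74 (a rise of 2.57), and its off-year difference was 1.93. Its on-year call was lost without 1 array of UF, OFF-J or OFF-M or without ON-J replicate 1 (up to 0.0908). The model of the zinc finger protein STZ/ZAT10, known in Arabidopsis for salt tolerance, read 7.37 and 7.07 against 9.23, lost without either UF array or ON-J replicate 2 (up to 0.0532). A protein kinase model and estExt_fgenesh4_pg.C_LG_XI0828 (IQD9, with photoperiod and methionine terms) rose by 3.07 and 2.14, and their calls were lost without 1 array of OFF-M or ON-J (up to 0.0904 and 0.113). For estExt_fgenesh4_pg.C_LG_XI0828 leaving out either UF array had the same effect.

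**Figure D5:**
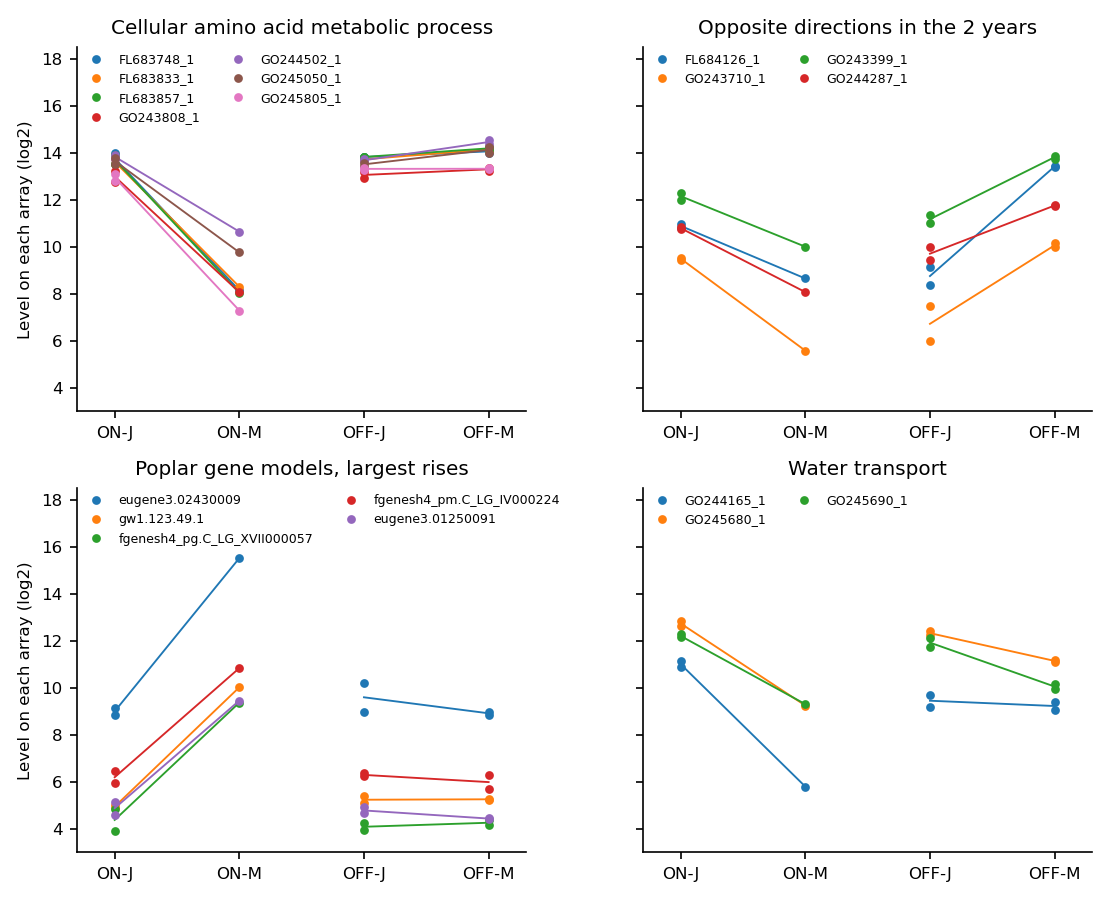
Level on each leaf array (vertical axis, log2) in ON-J, ON-M, OFF-J and OFF-M for 4 sets, namely the 7 amino acid ESTs, the 4 ESTs that moved opposite ways in the 2 years, the 5 poplar gene models with the largest rises and the 3 water transport ESTs. Points are arrays and lines join group means within a year. The amino acid ESTs drop only at the ON-M array, which reads 7.29 to 10.65, and the poplar models rise only there.

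The origin of the ESTs went with the share of falls. Of the 3706 ESTs with GO accession prefixes, 196 were called lower (5.29%) and 7 higher, and of the 1021 with FL prefixes, from olive fruitlets, 47 (4.6%) and 2. Of the 757 with FN prefixes 7 were called lower (0.925%) and 1 higher, and 109 of these 757 were called higher in the off-year. The median on-year difference was -0.27 for the GO, -0.12 for the FL and 0.02 for the FN ESTs.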

How the data were processed

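Total RNA of leaves and fruits was labelled with Cy3 and hybridized to a one-colour NimbleGen array. The authors normalized the probe signals by quantile normalization and summarized them with the robust multi-array average (RMA), and the values they deposited are log2 expression per probe set and array. The deposited table of one log2 value per sample equals the mean of its arrays and served only as a check.

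Each of the 6 groups had 2 arrays, except ON-M with 1. The study mentions 2 biological replicates of each sample; a second ON-M array was not analysed here. Group means over all 11 arrays were fitted with limma 3.58.1 in R 4.3.3 (two-sided moderated test, 5 residual degrees of freedom), with Benjamini-Hochberg adjustment over all 54615 probe sets. Transcripts were called where the adjusted p was under 0.05 and the log2 difference at least 2. The script was tested on simulated data. Word lists were drawn from the annotations in the study's supplementary tables (698 transcripts).

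Named were the 12 largest called falls and 8 rises of olive ESTs, 5 poplar gene models each way, the 2 largest called members of each list each way, the leaf transcripts named by the study, ESTs called in opposite directions in the years, the 5 largest called differences between years each way, and the 5 ESTs nearest in pattern to the largest fall. GO245680_1 and GO245690_1 were named after their values were seen. The members and lists were chosen with earlier results of these data known. Alternatives covered the test, the adjustment, the arrays fitted, the prior, the size, a filter, the scaling, a replicate block and each array other than ON-M left out in turn.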

Additional observations from a re-analysis of the deposited data

Results flagged for a closer look

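Each transcript below had a limma-tested difference between its on-year and off-year maturation with an adjusted p under 0.05 and a size of 2 or more, as had 83 olive ESTs in all. The values are the on-year minus the off-year log2 difference. As given above, 12 of the 38 named transcripts kept the call with each array left out in turn, and the causes were not tested.

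Among the lipid and fatty acid ESTs the difference was -3.91 for GO243991_1, -4.20 for GO243240_1, -4.61 for GO244094_1, -4.23 for GO245033_1, -4.18 for GO243363_1 and -2.88 for GO243632_1. The off-year difference of each was also below 0, so the on-year fall was the larger one. For the amino acid ESTs FL683857_1, GO245805_1 and FL683748_1, which hardly moved in the off-year, it was -6.03, -5.66 and -5.85.

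The wall and trichome ESTs GO245145_1 and GO244729_1 differed by -2.84 and -2.54, and GO243430_1, close to them in pattern, by -2.76. The defense ESTs GO243211_1 and GO243814_1 differed by -3.77 and -3.76, the folding EST GO244048_1 by -3.23 and the ubiquitination EST FL684185_1 by -5.94. The transport ESTs GO244165_1 and GO244702_1, flat in the off-year, differed by -4.98 and -3.64.

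The flavonol and anthocyanin ESTs GO243114_1 and GO243553_1 differed by -3.92 and -3.79. Larger values belonged to the ESTs that also rose in the off-year, with -6.90 for FL684126_1, -7.25 for GO243710_1, -4.79 for GO243399_1, -4.77 for GO244287_1 and -6.95 for FL683787_1. Of the ESTs without a known process, FL684392_1 differed by -6.92 and GO244999_1 by -4.87. The positive olive case, GO245879_1, differed by 2.45.

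Of the 22 poplar gene models with such a call 19 differed the other way, and the named ones were among these. The value was 7.20 for eugene3.02430009, 5.06 for gw1.123.49.1 (COL2), 4.95 for fgenesh4_pm.C_LG_IV000224, 4.92 for eugene3.01250091 and 4.95 for eugene3.00290281. It was 4.42 for estExt_Genewise1_v1.C_660290, 4.21 for eugene3.00170500, 3.69 for eugene3.00020895, 2.81 for eugene3.00102522 and 2.57 for estExt_fgenesh4_pg.C_LG_VI1748.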

How the results depend on the processing

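The on-year log2 differences of the 73 named called transcripts kept their sign under every alternative that tested them, each of which held the ON-M array. Some lost their call when 1 of the other arrays was left out in turn. The methods' t-test (called 176 lower and 7 higher olive ESTs unadjusted) gave 0 calls of any kind after Benjamini-Hochberg adjustment, where limma without adjustment gave 355 lower and 12 higher. A fit on the ON-J and ON-M arrays alone called 65 olive ESTs lower, 0 higher (7 at an unadjusted p by the methods' t-test) and 9 poplar gene models. A size of 1 gave 20 olive rises. Fits on olive ESTs alone gave 12, with centring on the olive median 48 and with the median olive difference near 0 16. Leaving out 1 array gave 145 to 341 olive falls, 2 to 12 rises, 20 to 153 poplar calls and 18 to 444 differences between the years. Without adjustment there were 103 poplar calls and 625 differences between the years. The latter numbered 375 with the trend and robust prior, 283 above a mean of 6, 585 with olive ESTs alone and, among these, 300 centred on the olive median and 410 with their median difference near 0.

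The replicate block, with arrays numbered by file order because the labels do not say which file is which replicate, gave 193 olive falls, 9 rises, 25 poplar calls and 30 differences between the years. Arrays of the same number deviated together only weakly (r from -0.05 to 0.15), so the numbers were not taken as pairs. One ON-M array sets the limit of every value here. It was part of every fit, so leaving out other arrays does not test it. Levels near the random control have no reliable size.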
